A study of Mus musculus with 29 samples.

Results

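Bone marrow-derived macrophages are macrophages that grow out of marrow precursors in culture when CSF-1, the growth factor that binds the receptor kinase CSF1R, is the one cytokine supplied. The 8 unstimulated samples described here are such cells held at rest, and they were taken by their labels from a series of 29 samples, each on an Affymetrix 3′ expression array of 22690 probe sets. Marrow came from femurs and tibias of C57BL/6 mice of 8 weeks and was grown for 7 days in Teflon bags with CSF-1 at 10 ng/ml. A further 24 h in suspension followed, again with CSF-1 at 10 ng/ml and, in the unstimulated group, nothing else. The 5 stimulated groups kept the same CSF-1 and received, for the same 24 h, 10 ng/ml of IL-4 (5 arrays), of IL-6 (5), of IL-4 and IL-6 each (5), of IL-10 (3), or of IL-4 and IL-10 each (3). No group went without CSF-1, so resting here means resting in CSF-1. Separate mice or cultures are not named in the labels, and p-values therefore reflect array-to-array spread, of which the technical part is not known.

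CSF-1 keeps cells of the mononuclear phagocyte lineage alive, drives their proliferation and sets their differentiation, acting through CSF1R and the myeloid transcription factor PU.1 (Spi1). Macrophages are known for large lysosomes filled with cathepsins and lipid hydrolases, for receptors that take up debris and microbes, and for a motile actin cortex. Signals from cytokines or microbes switch on further programmes, such as the arginase programme of IL-4 or the nitric oxide and interleukin programme of microbial products.

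Levels are log2 intensities, and each gene is represented by 1 probe set, the one with the highest mean over the 8 unstimulated arrays. A probe set's brightness depends on its probes as well as on the transcript, so the order of genes given below is an order of array signal and not of transcript number. Of 4956 genes with several probe sets, 2055 (41.5%) have probe sets that differ by more than 2 log2 units, so a gene's level is that of its brightest probe set. Over 12393 genes the means ran from 2.77 to 15.10, with a median of 7.53 and the upper 10% starting at 10.9. The distribution had a peak on each side of a trough near log2 7, as the plot of mean levels shows. A background bound was read from 164 measured genes that other tissues use, such as hormones, digestive enzymes and muscle or neuronal proteins. Their median was 4.68, and their 95th percentile, 6.60, was taken as the bound. On all 8 arrays 6944 genes (56.0%) lay above it, 5226 genes (42.2%) had a mean at or below it and are called near background, and 223 (1.80%) fell between. Near background means that the probe set cannot be told from those of genes of other tissues, not that the transcript is absent. Of the 164 genes behind the bound, 6 lay above it, namely Oxt (8.21), Cyp21a1, Hcrt, Sftpb, Cela1 and Sct, so a probe set somewhat above the bound is weak evidence of a transcript.

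**Figure D1:**
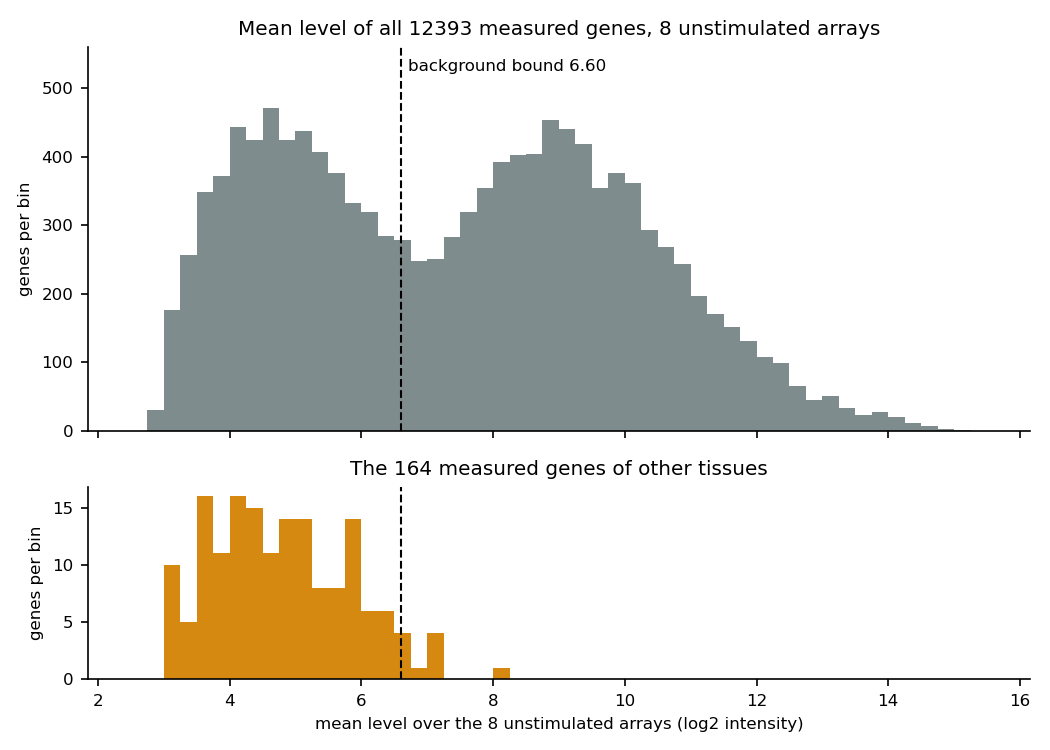
Histograms of the mean level over the 8 unstimulated arrays (x, log2 intensity, bins of 0.25) for all 12393 genes (upper panel) and for the 164 genes of other tissues (lower panel), with the number of genes on y and the background bound of 6.60 as a dashed line. The genes of other tissues sit under the lower peak, with a median of 4.68, and 155 of them have means at or below the bound.

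The 8 arrays correlated with each other at 0.994 to 0.998 over the 12393 genes. Replicates 6 to 8, numbers that exist in the unstimulated group and in no other, stood apart from replicates 1 to 5. The first principal component held 50.4% of the variance and ran from 0.39 to 0.56 in replicates 6 to 8 and from -0.32 to -0.20 in replicates 1 to 5. What parts the 2 sets is not labelled. The 3′ minus 5′ value of the Actb controls, on the log2 scale, was 0.441 ± 0.070 in replicates 6 to 8 (SD, n = 3) and 0.318 ± 0.0089 in replicates 1 to 5 (SD, n = 5), while that of Gapdh was -0.057 ± 0.048 and -0.048 ± 0.014. Of the 30 highest genes, 29 stayed among the 30 highest with replicates 6 to 8 alone and 29 with replicates 1 to 5 alone, and levels below are means over all 8.

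The gene with the highest signal was Lyz1, a lysozyme that cleaves bacterial cell walls, whose 8 arrays lay between 15.07 and 15.12 with a median of 15.09. Its paralogue Lyz2, the lysozyme used as a marker of myeloid cells, lay between 14.87 and 14.93 with a median of 14.90. Both were among the steadiest genes of the arrays, with SDs of 0.015 and 0.019 (n = 8). Both also lay at the upper end of the scale, and whether the processing narrows the spread there was not tested. The probe set of Lyz1 is of the kind whose probes may also match other transcripts, so it may read Lyz2 as well, and a further probe set of Lyz1 stood at 6.54. The genes are neighbours on chromosome 10, and the last 100 bases before their starts are shown because the upper end of the list turns on this pair. They are taken from RefSeq on GRCm38.p6 and run 5′ to 3′, and the capitals mark an AT-rich TTAAATA that both share (this motif stands, on either strand, in 2.88% of 12566 promoter windows of 300 bases).
Lyz1 (chr10:117292869-117292968, minus strand): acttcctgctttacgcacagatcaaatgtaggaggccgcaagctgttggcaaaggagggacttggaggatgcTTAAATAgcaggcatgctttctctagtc
Lyz2 (chr10:117282273-117282372, minus strand): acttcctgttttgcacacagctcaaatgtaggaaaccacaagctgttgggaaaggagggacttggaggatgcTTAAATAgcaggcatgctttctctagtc
The windows are identical at 92 of these 100 bases, at 49 of the 50 bases after the start, and at 201 of 300 over the whole window.

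Other genes at the upper end came from a small number of roles. Fth1, the ferritin heavy chain that stores iron, had a median of 14.93 (14.92 to 14.95), and Lgals3, the galactose-binding lectin galectin-3, a median of 14.91 (14.89 to 14.93). Tmsb4x and Tmsb10, which bind actin monomers, averaged 14.73 and 14.48, and the actins Actb and Actg1 averaged 14.68 and 14.21. The lysosomal and secreted proteases cathepsin B (Ctsb, 14.54), S (Ctss, 14.51) and L (Ctsl, 14.32) were among the 30 highest genes, as were Psap, the precursor of lipid-degrading cofactors (14.16), and Gpnmb, a membrane glycoprotein of late endosomes (14.28). Lipid handling was represented by Lpl, the lipase that releases fatty acids from lipoproteins (14.65), and by Apoe, the apolipoprotein that macrophages secrete (14.20). Csf1r itself was the gene at rank 19, at 14.37 ± 0.037 (SD, n = 8), and Tyrobp, the signalling adaptor that many myeloid receptors share, stood at 14.42. In all, 45 genes had means of 14 or more, 136 lay between 13 and 14, and 318 between 12 and 13. Probe sets of some of these genes disagreed, for example those of Tpt1, a growth-related cytosolic protein (14.71 and 3.84).

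**Figure D2:**
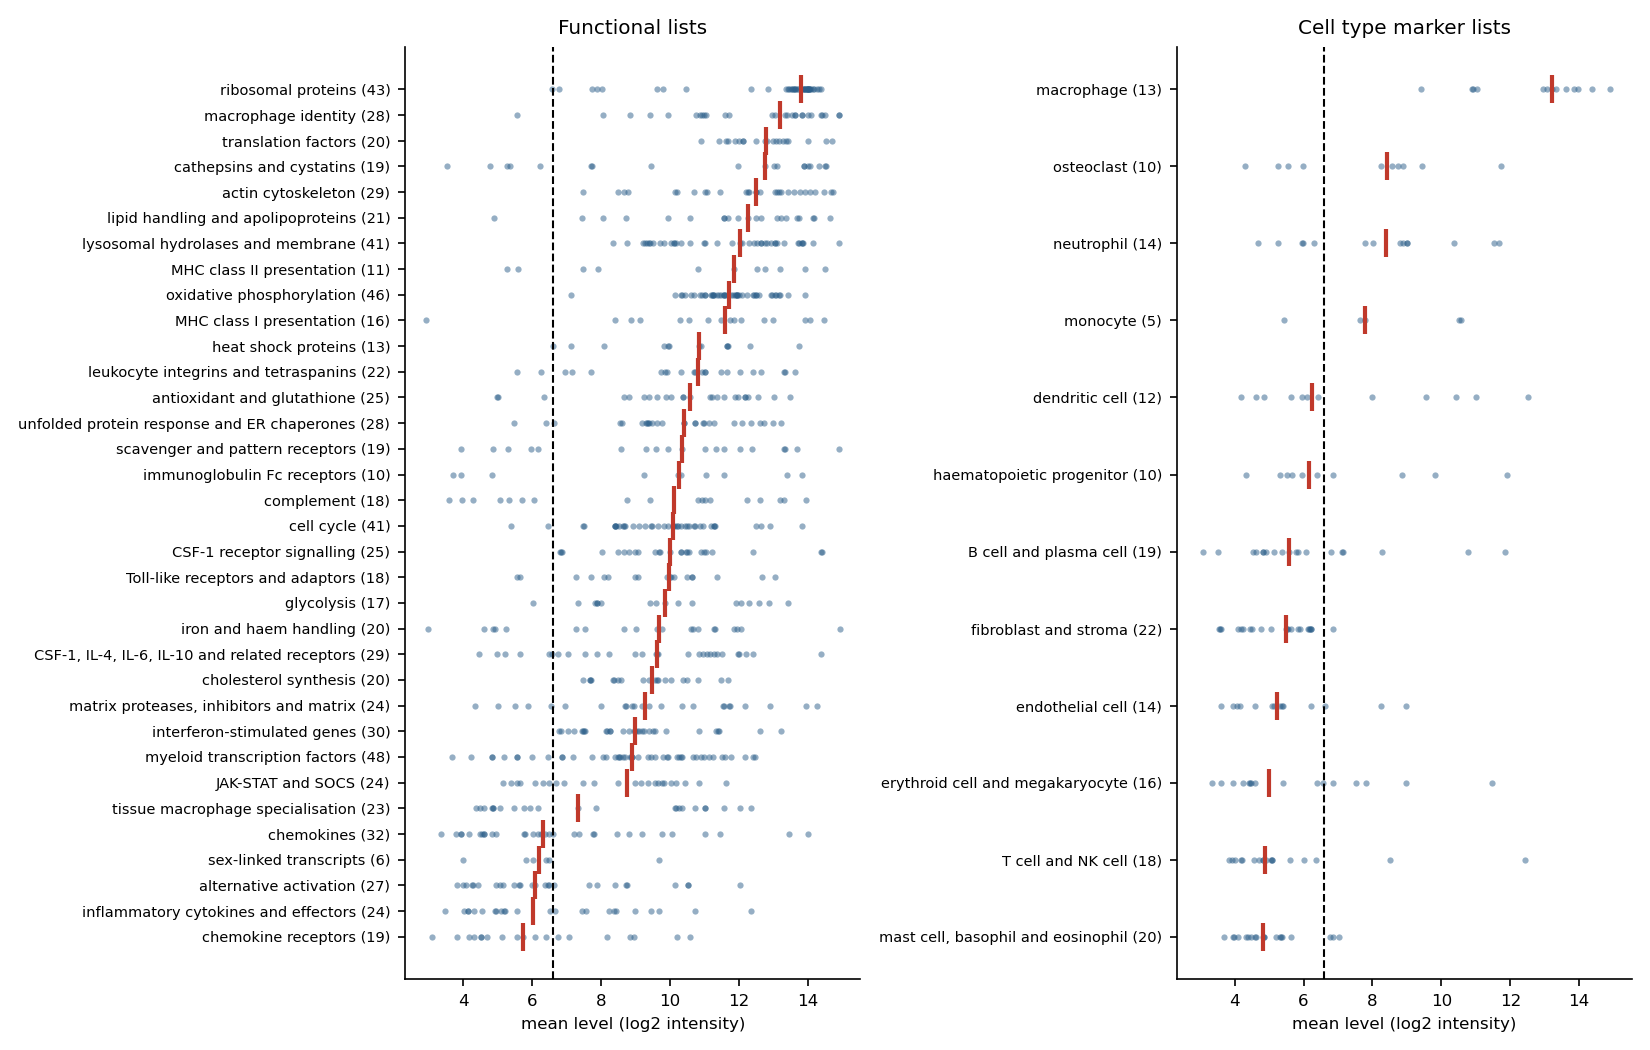
Mean level over the 8 unstimulated arrays (x, log2 intensity) of each measured gene (points) of the functional lists (left) and cell type marker lists (right), sorted by the list's median (red bar), with the number of measured genes in brackets and the background bound of 6.60 dashed. On the left ribosomal proteins (median 13.80) and on the right macrophage markers (13.21) lie at the upper end, with chemokine receptors (5.75) and mast cell, basophil and eosinophil markers (4.83) at the lower end.

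The labelled cell type matched its markers. All 13 measured macrophage markers lay above the bound on all 8 arrays, with a median of 13.21 against 7.53 over all genes. Besides Lyz2 and Csf1r they were led by the complement subunits C1qb (13.96), C1qa (13.32) and C1qc (13.21), the endosomal glycoprotein Cd68 (13.84) and the adhesion receptor Adgre1, the target of the F4/80 antibody (13.62). The lowest were Aif1, a calcium-binding actin partner (10.88), and Mertk, a receptor for dying cells (9.42). Adgre1 lay between 13.56 and 13.74 with a median of 13.60, and the median of the marker list differed little between arrays, from 13.09 to 13.26 in replicates 6 to 8 and from 13.23 to 13.29 in replicates 1 to 5. Of 28 measured genes of the wider macrophage identity list, 27 were above the bound and 21 were in the upper 10% of all genes. The exception was Maf, a transcription factor of resident macrophages, at 5.58 ± 0.091. Other transcription factors of the lineage stood lower on the scale than the brightest of these markers, with Spi1 at 10.99, Irf8 at 10.75, Cebpb at 11.61 and Cebpa at 9.96. Each of these lay above Mertk, and Spi1 and Cebpb above Aif1 as well.

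PU.1 is known to bind purine-rich sites whose core is often written GAGGAA, and promoters of macrophage genes that hold these letters are shown for that reason. RefSeq windows of 250 bases before and 50 after the start were found for 9887 of the 12393 genes, 12566 windows in all. GAGGAA, on either strand, stood in 12 of the 25 windows of macrophage identity genes (48.0%) and in 27.3% of all windows. The capitals mark GAGGAA, or TTCCTC where the match is on the other strand, in 30 bases of GRCm38.p6.
Ctss (chr3:95526610-95526639, plus strand): gacacagggttgGAGGAAaactttgtcctg
Cd68 (chr11:69666378-69666407, minus strand): tttcttaccaatGAGGAAagggcttcccat
Laptm5 (chr4:130913266-130913295, plus strand): gcagcctgtggcTTCCTCttttttgttctg
Trem2 (chr17:48346349-48346378, plus strand): agcctcctttccTTCCTCcctccctcacgc
Itgam (chr7:128062544-128062573, plus strand): tgttttctcccgGAGGAAggctacagaggg
These letters are common, and a match is a description and not a binding site. The windows of macrophage identity genes were also poor in CpG. Their median ratio of observed to expected CpG was 0.31, against 0.68 over all windows, 0.78 in the 10% highest genes, 0.42 in genes near background and 0.25 in the genes of other tissues. TATAAA stood in 24.0% of them and in 9.81% of all windows.

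The lysosome was read out strongly and evenly. All 41 measured lysosomal hydrolases and membrane proteins were above the bound on all 8 arrays, with a median of 12.04, and 25 were in the upper 10% of genes. Lamp1, the main glycoprotein of the lysosomal membrane, stood at 13.85, Grn, the precursor of granulins, at 13.85, Npc2, which hands over cholesterol, at 13.73, and Hexa, a subunit of hexosaminidase, at 13.72. At the lower end were Acp5, the tartrate-resistant acid phosphatase (8.75), and Ids, a sulphatase of glycosaminoglycans (8.35). Of 19 measured cathepsins and their inhibitors, 14 were above the bound, and these fell into levels far apart. Cathepsins B, S, L, Z and D and the inhibitors Cstb and Cst3 all lay between 13.89 and 14.54, Ctsk, the collagenase of osteoclasts, at 9.45, and Ctse and Ctsf at 7.73 and 7.71. The inhibitor Cst7 (6.25), the cytotoxic cell protease Ctsw (5.36) and the neutrophil protease Ctsg (5.27) were near background, and so were Cst6 and Stfa3.

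TFEB, a transcription factor that drives lysosomal genes, is known to bind an E-box of the letters TCACGTGA, which read the same on both strands. They stood in 6 of the 40 windows found for the lysosomal list, in 1.46% of all 12566 windows and in 0.630% of windows of genes near background. Those 6 are shown, 30 bases each of GRCm38.p6, with the motif in capitals, since they span the vacuolar proton pump, a channel and a hydrolase.
Atp6v1a (chr16:44139373-44139402, minus strand): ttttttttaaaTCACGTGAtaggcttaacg
Atp6v0e (chr17:26676387-26676416, plus strand): tagcgcgccgaTCACGTGAgcctctgttga
Atp6v0d1 (chr8:105566050-105566079, minus strand): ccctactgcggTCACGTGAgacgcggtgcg
Gla (chrX:134601215-134601244, minus strand): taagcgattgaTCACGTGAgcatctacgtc
Cln3 (chr7:126583340-126583369, minus strand): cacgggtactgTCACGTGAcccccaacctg
Mcoln1 (chr8:3500462-3500491, plus strand): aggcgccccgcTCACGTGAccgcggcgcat
Their levels were 12.77 for Atp6v1a and 12.64 for Atp6v0e, subunits of the proton pump, 11.81 for its subunit Atp6v0d1, 11.03 for the galactosidase Gla, 9.83 for Cln3 and 9.52 for the calcium channel Mcoln1. Tfeb itself averaged 8.50 and its relative Mitf 11.78, although a second probe set of Mitf stood at 6.85.

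Ribosomal proteins formed the brightest list, with a median of 13.80, and 42 of 43 measured members were above the bound. Rps29 (14.38), Rpl37a (14.32) and Rps28 (14.26) led, and Rps27 (6.78) and Rpl39 (6.59) ended the list. A ribosome holds its proteins in equal numbers, and a dim probe set here cannot be read as a rare transcript. Messenger RNAs of ribosomal proteins are known for a run of pyrimidines that begins with C at their first base. A C followed by 5 letters C or T, searched on the sense strand from 5 bases before to 8 bases after the start, was found in 34.1% of 44 ribosomal windows and in 7.81% of all windows. In the next 4 windows of 30 bases capitals mark the run as far as it lies within the searched stretch, and in Fau and Rps18 it goes on beyond.
Rplp2 (chr7:141447636-141447665, plus strand): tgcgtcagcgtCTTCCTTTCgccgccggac
Rps24 (chr14:24490663-24490692, plus strand): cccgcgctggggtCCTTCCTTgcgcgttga
Fau (chr19:6057932-6057961, plus strand): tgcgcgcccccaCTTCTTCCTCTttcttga
Rps18 (chr17:33955651-33955680, minus strand): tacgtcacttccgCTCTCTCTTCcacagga
Translation factors followed with a median of 12.79 and all 20 above the bound, led after Tpt1 by Eef1a1, the elongation factor that delivers transfer RNA (14.53 ± 0.0086). The respiratory chain and ATP synthase had all 46 members above the bound, with a median of 11.71 and values from 13.91 for Cox6a1 to 7.15 for Cox7c, both subunits of cytochrome oxidase. Glycolysis had 16 of 17 above, with aldolase (Aldoa, 13.42) and Pgk1 (12.87) highest and the lactate exporter Slc16a3 near background at 6.02.

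The actin cortex and adhesion genes were nearly complete. All 29 actin cytoskeleton genes were above the bound, with a median of 12.51, from the actins and thymosins named above and the intermediate filament protein Vim (14.08) down to Fscn1, a bundling protein of dendritic cells (7.47). Among 22 leukocyte integrins and tetraspanins 20 were above, led by the integrin chain Itgb2 (13.64), Cd53 (13.35) and Cd9 (13.30), while Itgal (6.27) and Itgb3 (5.56) were near background. The complement receptor chain Itgam (10.93) and its relative Itgax (11.02) stood between these ends. Matrix genes had 19 of 24 above the bound, with the elastase Mmp12 at 13.96 and the metalloprotease Adam8 at 12.91, and Mmp3 (4.36) and Timp3 (5.01) at the other end.

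Genes of uptake and antigen presentation were well represented. B2m, the light chain of class I molecules, stood at 14.47 and the heavy chains H2-D1 and H2-K1 at 14.06 and 13.92, although sequence shared among class I genes may mix their signals. Class II genes were also bright, with H2-Aa at 13.92, the invariant chain Cd74 at 13.20, H2-Eb1 at 12.78 and H2-Ab1 at 12.52, and the transactivator Ciita at 7.91. They were less steady than their level would give, with an SD of 0.293 for Cd74 and 0.337 for H2-Ab1. Cd74 was 12.72, 13.04 and 13.08 in replicates 6, 7 and 8 and 13.70, 13.43, 13.28, 13.30 and 13.09 in replicates 1 to 5. Replicate 1 was the highest array for Cd74, H2-Aa, H2-Eb1 and H2-Ab1 alike. Among Fc receptors 7 of 10 were above, with the shared signalling chain Fcer1g at 13.84 and Fcgr3 at 13.39, and Fcer1a, the IgE receptor chain of mast cells, near background at 3.70.

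Pattern recognition receptors lay on both sides of the bound. Of 18 Toll-like receptors and adaptors 16 were above the bound, led by the lipopolysaccharide co-receptor Cd14 (13.06) and by Ly86 (12.67), with Tlr1 (10.65), Tlr7 (10.50), Tlr4 (10.04) and Tlr2 (10.00) at similar levels. Tlr9, a receptor for CpG DNA (5.65), and Tlr5, the flagellin receptor (5.55), were near background. Scavenger and lectin receptors had 14 of 19 above, among them the fatty acid receptor Cd36 (13.68), the lectins Clec4d (13.34) and Clec7a (13.31), the mannose receptor Mrc1 (12.05) and Msr1 (11.35). Marco (6.16), Stab2 (5.97), Scara5 (5.31), the haemoglobin scavenger Cd163 (4.87) and Olr1 (3.95) were near background. Among 18 complement genes, 11 were above, and the proteases C1s1 (3.60), C2 (5.72) and C1ra (6.06) were near background beside the bright C1q chains.

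Lipid and iron handling separated in the same way. Of 21 lipid genes 20 were above the bound, with a median of 12.28, and besides Lpl and Apoe these included Fabp5, a fatty acid carrier (14.14), the lipid droplet coat Plin2 (13.37) and the cholesterol exporters Abca1 (12.65) and Abcg1 (11.68). The exception was Apoc1 (4.91). All 20 cholesterol synthesis genes were above the bound at a median of 9.50, from Hmgcs1 (11.69) to Mvd (7.67) and Tm7sf2 (7.49). Among 20 iron and haem genes 15 were above, from Fth1 through the phagosomal transporter Slc11a1 (11.96), the transferrin receptor Tfrc (10.81), the exporter ferroportin Slc40a1 (10.63) and haem oxygenase Hmox1 (9.63) to Steap3 (7.26). The iron hormone Hamp (5.24), the haem scavenger Hpx (4.61) and the oxidase Heph (2.99) were near background.

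The receptors of the cytokines used in the stimulated groups could all be read on resting arrays, at different levels. Il10rb averaged 12.20 ± 0.058, Il10ra 9.18 ± 0.145, Il6st, the gp130 chain, 9.59 ± 0.152, Il6ra 9.65 ± 0.196 and Il4ra 7.87 ± 0.206 (SD, n = 8 each). The 8 arrays of Il4ra ran from 7.54 to 8.10 around a median of 7.96, and all lay above the bound. The brightest of 5 probe sets of Il13ra1, a chain that pairs with Il4ra, was near background at 6.49, and so were the decoy receptor Il13ra2 (4.99) and Il34 (4.46), the other ligand of CSF1R. The list of 29 receptors and ligands had 22 above the bound. Among them were the beta chains Csf2rb2 and Csf2rb (11.16) and the interleukin-7 receptor Il7r (12.41). Downstream, the phosphatase Ptpn6 (11.62), Stat6 (10.86), Jak1 (10.44) and Stat3 (9.82) were above, and the feedback inhibitors Socs3 (6.49), Cish (6.09) and Socs1 (5.17) near background. The 8 arrays of Socs3 spanned the bound, from 6.12 to 6.99.

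Transcripts of CSF-1 receptor signalling and of the cell cycle were nearly all above the bound, which does not measure the activity of the pathway. All 25 measured genes of CSF-1 receptor signalling were above the bound, including the immediate early genes Fos (12.41), Egr2 (10.90) and Egr1 (9.57), the kinase Map2k1 (11.24) and Ccnd1, the cyclin of early G1 (10.49). The lowest were the adaptor Gab2 (6.84) and the exchange factor Sos1 (6.81), whose second probe set stood at 5.66. Of 41 cell cycle genes 39 were above, with a median of 10.09. Pcna, the sliding clamp of DNA replication, lay between 13.71 and 13.88 with a median of 13.85, the proliferation marker Mki67 between 11.11 and 11.44, and the topoisomerase Top2a between 10.56 and 11.04. The inhibitors Cdkn1a (10.70) and Cdkn1b (10.72) stood at levels like those of the mitotic genes. Ccnd2 (6.48) and Tyms (5.40) were the 2 members near background. Chaperones of the endoplasmic reticulum were bright too, with Hspa5 at 13.24 ± 0.045, Calr at 12.99 and Xbp1 at 12.36 ± 0.092. Ern1, the sensor kinase upstream of Xbp1, was near background at 6.41 ± 0.164.

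Lists of activation genes were divided by the bound. Of 27 measured genes of alternative activation, the programme known from IL-4, 17 were near background and 9 above. Arg1, the arginase of the urea cycle, lay between 3.63 and 4.04 with a median of 3.83, within the range of genes of other tissues. Retnla, a secreted resistin-like protein, averaged 6.01, and Rnase2a, Cd209e, Aldh1a2 and Chil4 lay between 3.99 and 4.28. Mrc1 (12.05), Tgm2 (10.54), Chil3 (10.52) and Pparg (10.15) were members of the same list that resting cells carried at high signal. Of 24 inflammatory cytokines and effectors 13 were near background, among them Il6 (3.49), Il1a (4.03), Csf2 (4.15), Il12b (4.56), Ptgs2 (4.95) and the nitric oxide synthase Nos2 (5.20). Nos2 lay between 4.97 and 5.43. Tnf (8.45), Il1b (7.46), Il18 and the antagonist Il1rn (8.37) were above the bound, as were the inhibitors Nfkbia (12.35) and Zfp36 (10.74).

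Chemokines were split between bright constitutive ones and others near background. Ccl9 (14.01) and Ccl6 (13.46) were among the brightest genes, followed by Pf4 (11.47), the membrane-bound Cxcl16 (11.02) and Ccl3 (10.07). In all 13 of 32 were above the bound and 18 near background, such as Ccl8 (5.76), Ccl17 (4.96), Cxcl9 (4.61) and Ccl11 (3.80), while Ccl7 (6.62) fell between. Only 6 of 19 chemokine receptors were above, namely Ccr2 (10.57), Cxcr4 (10.21), Ccr1 (8.97), Cx3cr1 (8.85), Ccrl2 (8.16) and Cxcr3 (7.08). Interferon-stimulated genes behaved differently from these lists, since 29 of 30 were above the bound and 0 near background. Ifitm3 (13.22), Ifitm2 (12.63) and Oas1a (11.42) were highest, and Oasl1 (6.83) and Isg20 (6.80) lowest. Genes that mark macrophages of particular organs were divided, 12 of 23 above and 11 near background. Folr2 (12.35), Mrc1, Fabp4 (11.58), Cd5l (11.03) and Pparg were above, and Clec4f of liver (5.48), Tmem119 of brain (4.87), Gata6 of the peritoneum (4.85), Sall1 of brain (4.60), Lyve1 (4.50) and Car4 (4.37) near background.

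Markers of most other cell types were near background. The monocyte, osteoclast and neutrophil lists had more members above the bound than near it, as did all genes together (56.0% above). In bulk samples fewer cells of a type and less RNA per cell cannot be told apart. Of 18 T cell and NK cell markers 16 were near background, including Cd3e (5.59), Cd3d (5.08) and Cd3g (3.93), and the 2 above were Il7r and Zap70 (8.51). Fibroblast and stroma markers had 21 of 22 near background, with Col1a1 at 4.46 and Col3a1 at 3.57, and erythroid and megakaryocyte markers 11 of 16, with the globins Hba-a1 and Hbb-b2 at 4.47 and 3.60. Endothelial markers had 11 of 14 near background, mast cell, basophil and eosinophil markers 17 of 20, and dendritic cell markers 7 of 12. Haematopoietic progenitor markers had 6 of 10 near background, among them Kit (4.32) and Cd34 (5.31), and osteoclast markers 4 of 10, among them Calcr (4.32). Of 5 monocyte markers 4 were above the bound and Vcan, a matrix proteoglycan, was near background (5.44).

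Some neutrophil granule transcripts were an exception. S100a8, a calcium-binding alarmin, averaged 11.68, its partner S100a9 11.51, Ngp 10.35, Lcn2 9.01, Ltf 8.79 and Camp 7.79. In all 9 of 14 neutrophil markers were above the bound, beside 56.0% of all genes, so the count does not set the list apart. The early granule proteases Prtn3 (6.32), Elane (5.95) and Ctsg (5.27) and the receptor Cxcr2 (4.69) were near background. S100a9 was 11.47, 12.001 and 11.36 in replicates 6, 7 and 8 and 11.37, 11.56, 11.49, 11.59 and 11.26 in replicates 1 to 5, and replicate 7 was the highest array for S100a8, Ngp, Lcn2, Ltf and Camp as well. The median of the neutrophil list was 8.00 to 8.49 in replicates 6 to 8 and 8.20 to 8.60 in replicates 1 to 5. Which cells these transcripts came from was not tested. Of 19 B cell and plasma cell markers 4 were above the bound, namely Ighm, the immunoglobulin heavy chain of class M (11.85), Sdc1 (10.78), Cd22 (8.26) and Cd79b (7.11). The other B lineage genes included Cd79a (4.92), Pax5 (4.82) and Ebf1 (3.52), all near background. Ighm has 11 probe sets, whose means run from 3.32 to 11.85.

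Across the 8 arrays most genes varied little. The median SD of the 6944 genes above the bound was 0.0955, and 3782 of them (54.5%) had an SD under 0.1. With the SD taken within the 2 sets of replicates the median was 0.0805, and near background the median SD over the 8 arrays was 0.140. The SD fell with level, from a median of 0.115 in the lowest 25% of the genes above the bound to 0.0787 in the highest 25%. The steadiest of the bright genes were Eef1a1 (SD 0.0086), Lgals3 (0.0096), Fth1 (0.011) and Tpt1 (0.013), and, at a lower level, Hnrnpm, a splicing regulator (10.42, SD 0.016). Apart from Hnrnpm, these genes lay at the upper end of the scale. Whether normalization or saturation narrows the spread there was not tested, so their small SDs may not reflect steady transcripts alone. Over the genes above the bound, a median of 27.6% of the sum of squares lay between the 2 sets, and for 2019 genes (29.1%) this share was over 50%.

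**Figure D3:**
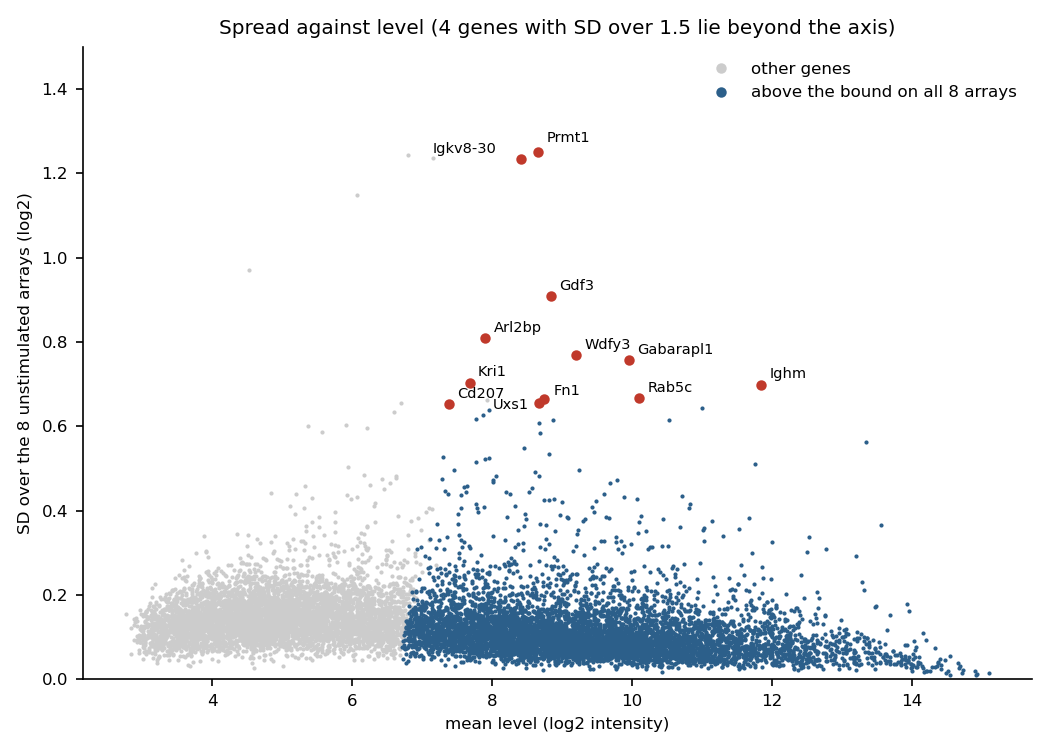
SD over the 8 unstimulated arrays (y, log2) against mean level (x, log2 intensity) for each gene, with genes above the bound on all 8 arrays in blue, other genes in grey, and the 12 genes of largest SD among the blue ones in red. Prmt1 (SD 1.25), Igkv8-30 (1.23) and Gdf3 (0.91) stand highest, and the 4 genes beyond the axis are Xist, Eif2s3y, Kdm5d and Uty.

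Only 28 of the 6944 genes had an SD over 0.5. The 12 largest belonged to Prmt1, an arginine methyltransferase (1.25), Igkv8-30, an immunoglobulin kappa segment (1.23), Gdf3, a growth factor of the TGF-beta family (0.91), Arl2bp (0.81), Wdfy3, a scaffold of selective autophagy (0.77), Gabarapl1, an autophagosome protein (0.76), Kri1 (0.70), Ighm (0.70), Rab5c, a GTPase of early endosomes (0.67), Fn1 or fibronectin (0.67), Uxs1 (0.66) and Cd207 or langerin (0.65). In 11 of these 12 genes replicates 6 to 8 lay on one side of replicates 1 to 5 without overlap, the exception being Gdf3. Cd207, for example, was 8.33, 8.16 and 7.92 in replicates 6, 7 and 8 and 6.97, 6.81, 7.05, 6.65 and 7.20 in replicates 1 to 5. A split between the sets itself adds to the SD by which the 12 were chosen, so this count was partly set by the choice. Of the 7153 genes tested below, 10.6% were called higher and 5.26% lower in replicates 6 to 8 without overlap.

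Larger spread still was seen in sex-linked transcripts, which the bound left out because they are near background on some arrays. Xist, the noncoding RNA that silences an X chromosome in female cells, was 6.70, 5.83 and 13.60 in replicates 6, 7 and 8 and 13.63, 5.04, 5.38, 13.65 and 13.57 in replicates 1 to 5. Eif2s3y, a Y-linked gene, gave the mirror image, with 10.17, 10.09 and 3.20 in replicates 6, 7 and 8 and 3.28, 9.58, 9.57, 3.05 and 3.05 in replicates 1 to 5. The Y-linked Kdm5d and Uty followed Eif2s3y on every one of the 8 arrays. Replicates 1, 4, 5 and 8 were thus bright for Xist and replicates 2, 3, 6 and 7 for the Y-linked genes, and the labels give no sex. Gdf3 lay with Xist, at 7.85, 7.98 and 9.66 in replicates 6, 7 and 8 and at 9.60, 7.82, 8.50, 10.05 and 9.27 in replicates 1 to 5. Among the stimulated arrays, those numbered 1 to 5 with IL-4, IL-6 or both carried the same Xist pattern as the unstimulated arrays of the same number. The IL-10 and IL-4 plus IL-10 arrays numbered 1, 2 and 3 carried the pattern of unstimulated replicates 6, 7 and 8. No group average or test was made from this pattern.

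The difference between replicates 6 to 8 and 1 to 5 was tested with limma in a fit over all 29 arrays, on 7153 genes with at least 3 arrays above log2 6.99, the median of all values. At an adjusted p under 0.05, 1366 genes were called (19.1% of those tested), 878 higher (12.3%) and 488 lower (6.82%), and the count was 840 without replicate 7 and 2874 with array weights. Differences were small for most, and 14 genes (0.196%) rose and 9 (0.126%) fell by 1 log2 unit or more. The largest rises among genes whose arrays did not overlap (756 higher, 10.6%, and 376 lower, 5.26%) were in Prmt1, Arl2bp and Gabarapl1. Prmt1 was 9.75, 10.15 and 10.05 in replicates 6, 7 and 8 and 6.94, 7.36, 8.37, 7.78 and 8.90 in replicates 1 to 5, a log2 difference of 2.12 ± 0.46 (SE, limma adjusted p = 0.0018). Gabarapl1 was 10.72, 10.96 and 10.90 in replicates 6, 7 and 8 and 9.44, 9.35, 9.48, 9.36 and 9.40 in replicates 1 to 5 (1.45 ± 0.14, adjusted p = 5.66e-08), and its second probe set gave 1.57. Stat5a, a transcription factor of cytokine signalling, was 7.44, 7.57 and 7.39 in replicates 6, 7 and 8 and 6.39, 6.05, 6.37, 6.35 and 6.01 in replicates 1 to 5 (1.23 ± 0.11, adjusted p = 2.26e-08), so its mean was above the bound in the first set and below it in the second. Arl2bp, Kri1, Rab5c and Slc13a3 rose by 1.22 to 1.51. For Vapb the probe sets disagreed, one giving 1.31 and the other -0.04.

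Among genes whose arrays did not overlap, the largest falls were in B lineage genes. Since Jchain, Iglv1 and Ms4a1 averaged below the bound in replicates 6 to 8, background limits their sizes. Jchain, the chain that joins immunoglobulin polymers, was 5.81, 6.11 and 5.51 in replicates 6, 7 and 8 and 7.46, 7.08, 7.99, 8.64 and 8.60 in replicates 1 to 5 (-2.15 ± 0.42, adjusted p = 0.00065). Ighm was 11.12, 11.18 and 10.97 in replicates 6, 7 and 8 and 12.07, 11.78, 12.26, 12.76 and 12.63 in replicates 1 to 5 (-1.21 ± 0.31, adjusted p = 0.0063), and the second of its probe sets gave -1.23. The light chain genes Igkv8-30 and Iglv1 fell, with differences of -2.09 and -2.01. The B cell surface protein Ms4a1 also fell, at 4.66, 4.87 and 4.94 in replicates 6, 7 and 8 and 6.58, 6.13, 6.45, 7.68 and 7.32 in replicates 1 to 5. Of the 19 B lineage markers measured, 7 passed the filter and were tested, and 6 of these fell and 0 rose (6.82% of all genes fell). Jchain, Iglv1 and Ms4a1 stayed below the filter of log2 6.99 in replicates 6 to 8 and on the arrays with IL-10. They entered only through the other arrays, where they were higher, so their fall was largely set by the filter. The count is therefore not a test of the list. The median of the whole marker list was 4.87 to 5.19 in replicates 6 to 8 and 5.46 to 5.81 in replicates 1 to 5. Outside that lineage Wdfy3, Fn1 and Ifngr2, a chain of the interferon-gamma receptor, fell, with differences of -1.44, -1.24 and -1.18. A second probe set of Ifngr2 gave -0.02, so its fall was seen by 1 of 2 probe sets.

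**Figure D4:**
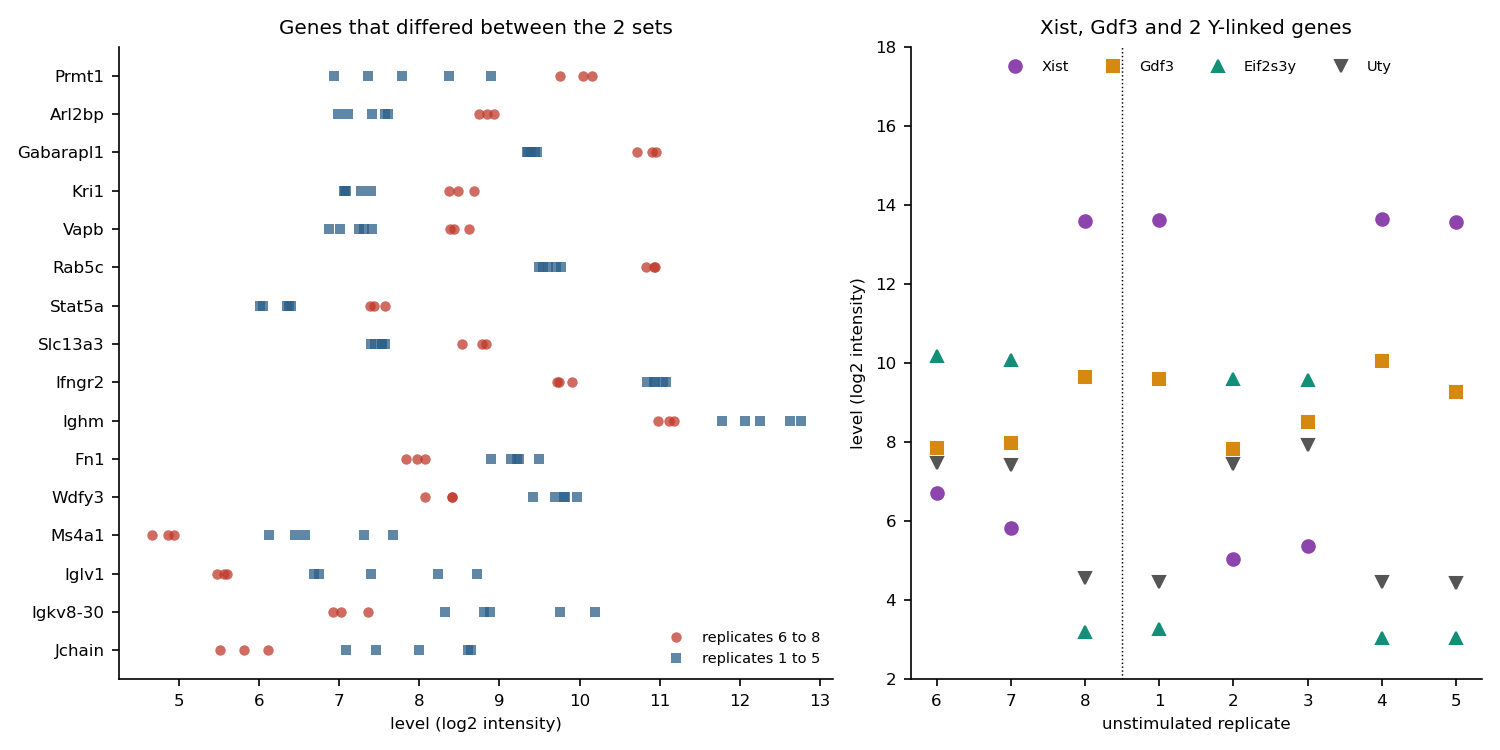
Left, the level on each unstimulated array (x, log2 intensity) of the 8 genes that rose most and the 8 that fell most in replicates 6 to 8 (red circles) against replicates 1 to 5 (blue squares), chosen among genes whose arrays do not overlap. Right, the level (y, log2 intensity) of Xist, Gdf3, Eif2s3y and Uty on each array, replicates 6 to 8 left of the dotted line, where Gdf3 goes with Xist (13.60 in replicate 8 against 5.83 in replicate 7) and opposite to the Y-linked genes.

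By list, genes of the respiratory chain and ATP synthase (15 higher and 0 lower of 46) and ribosomal proteins (12 and 0 of 41) were called in 1 direction, at small sizes such as 0.12 for Rpl37a and Cox6b1. Over all genes 12.3% were higher and 6.82% lower. Replicate 7 had the highest median of the 8 arrays for both lists. That of the respiratory list was 11.70, 11.96 and 11.77 in replicates 6, 7 and 8, against 11.63 to 11.70 in replicates 1 to 5. For ribosomal proteins it was 13.82, 13.87 and 13.79, against 13.78 to 13.79. Without replicate 7 the calls over all genes were 426 higher and 414 lower, and whether these lists still lean then was not tested. Cytokine receptors had 0 higher and 9 lower of 25, among them Csf2rb (-0.39) and Csf2ra (-0.39), and lysosomal genes 1 and 9 of 41. Macrophage identity genes had 0 higher and 4 lower of 27, namely Cybb, Itgam, Itgb2 and Ptprc, with differences of -0.42, -0.33, -0.22 and -0.15. Siglec1, a sialic acid receptor of tissue macrophages, fell by 0.83, at 6.74, 6.91 and 6.78 in replicates 6, 7 and 8 against 7.77, 7.80, 7.53, 7.64 and 7.45 in replicates 1 to 5. The 3′ to 5′ difference of Actb moved with this split, as given above, and its part in these calls was not tested. For 11 of the 16 genes named for the largest differences between the sets, the 6 arrays with IL-10 did not overlap the other 15 stimulated arrays. They lay on the same side of these as replicates 6 to 8 of replicates 1 to 5. Rab5c, for instance, ran from 11.11 to 11.30 on the IL-10 arrays and from 9.40 to 10.58 on the others, where cytokine and set cannot be told apart. The 16 were chosen for large differences without overlap, and the share of all genes with this pattern was not counted. Among the 11, Jchain, Iglv1 and Ms4a1 stayed below the filter in replicates 6 to 8 and on the arrays with IL-10. The count is therefore a description of named genes and not a test.

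Set against the 21 stimulated arrays, the unstimulated arrays differed in many genes by little. The contrast was the unstimulated mean minus the mean of the 5 stimulated group means, in the same limma fit without the split. Of 7153 genes, 4849 were called (67.8%), 2489 higher in unstimulated cells (34.8%) and 2360 lower (33.0%), and 80 (1.12%) and 122 (1.71%) of these differed by 1 log2 unit or more. Only 171 (2.39%) were higher and 104 (1.45%) lower with no overlap between the 8 and the 21 arrays, and these mark the resting state against each of the 5 stimulations. Within the sets the count was 3134 for replicates 6 to 8 against the IL-10 and IL-4 plus IL-10 groups and 4533 for replicates 1 to 5 against the 3 groups without IL-10.

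Among these genes without overlap, the largest differences in favour of resting cells were in Nptx1, Adgre4, Hpgd and Slc40a1. Nptx1, a secreted pentraxin, ranged from 7.95 to 9.49 (median 8.54) unstimulated and from 3.85 to 6.38 (median 4.90) stimulated, a log2 difference of 3.76 ± 0.16 (SE, limma adjusted p = 2.20e-17). Adgre4, an adhesion receptor of macrophages, ranged from 9.89 to 10.42 (median 10.19) unstimulated and from 3.89 to 9.38 (median 6.45) stimulated (3.53 ± 0.13, adjusted p = 9.64e-19). Slc40a1, the iron exporter, ranged from 10.47 to 10.86 (median 10.59) unstimulated and from 5.87 to 10.05 (median 7.57) stimulated (2.76 ± 0.07, adjusted p = 1.37e-22). For Adgre4 and Slc40a1 the stimulated groups nearest to resting cells were those without IL-4. For Nptx1 the groups did not part in this way, with means of 5.88 with IL-10, 5.55 with IL-4 and 4.62 with IL-6. Adgre4 averaged 9.04 with IL-6 and 9.05 with IL-10, against 6.38, 4.52 and 4.38 in the 3 groups with IL-4. Hpgd, which inactivates prostaglandins, Gpr34, the fractalkine receptor Cx3cr1, Arap3, the co-stimulatory receptor Cd28, Enc1 and Spata13 completed the 10, with differences from 2.80 down to 1.54. Stimulated means of several of these lay near background, so their sizes are limited by it.

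Genes lower in resting cells were led by chemokines. Ccl8 ranged from 5.11 to 6.25 (median 5.84) unstimulated and from 6.32 to 14.41 (median 8.92) stimulated, a log2 difference of -4.62 ± 0.11 (adjusted p = 2.25e-23). Ccl7 ranged from 6.41 to 6.78 (median 6.64) unstimulated and from 7.07 to 12.52 (median 8.73) stimulated (-3.05 ± 0.09, adjusted p = 7.46e-21). Both chemokines attract monocytes. All resting values of Ccl8 lay below the bound and those of Ccl7 on either side of it, and Cd209e and Gda were also near background at rest, so background limits the size and order of these differences. Timp1, an inhibitor of metalloproteases, Ier3, Cd209e, Gda, Plekhf1, the transcription factor Nfil3 and Eps8 were lower by amounts from -2.78 to -1.92. Fcgr2b, the inhibitory Fc receptor, was the brightest of the 10 at rest. It ranged from 11.11 to 11.96 (median 11.60) unstimulated and from 12.43 to 14.31 (median 13.22) stimulated (-1.84 ± 0.08, adjusted p = 6.92e-17), and all 4 of its probe sets gave differences between -2.17 and -1.84.

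**Figure D5:**
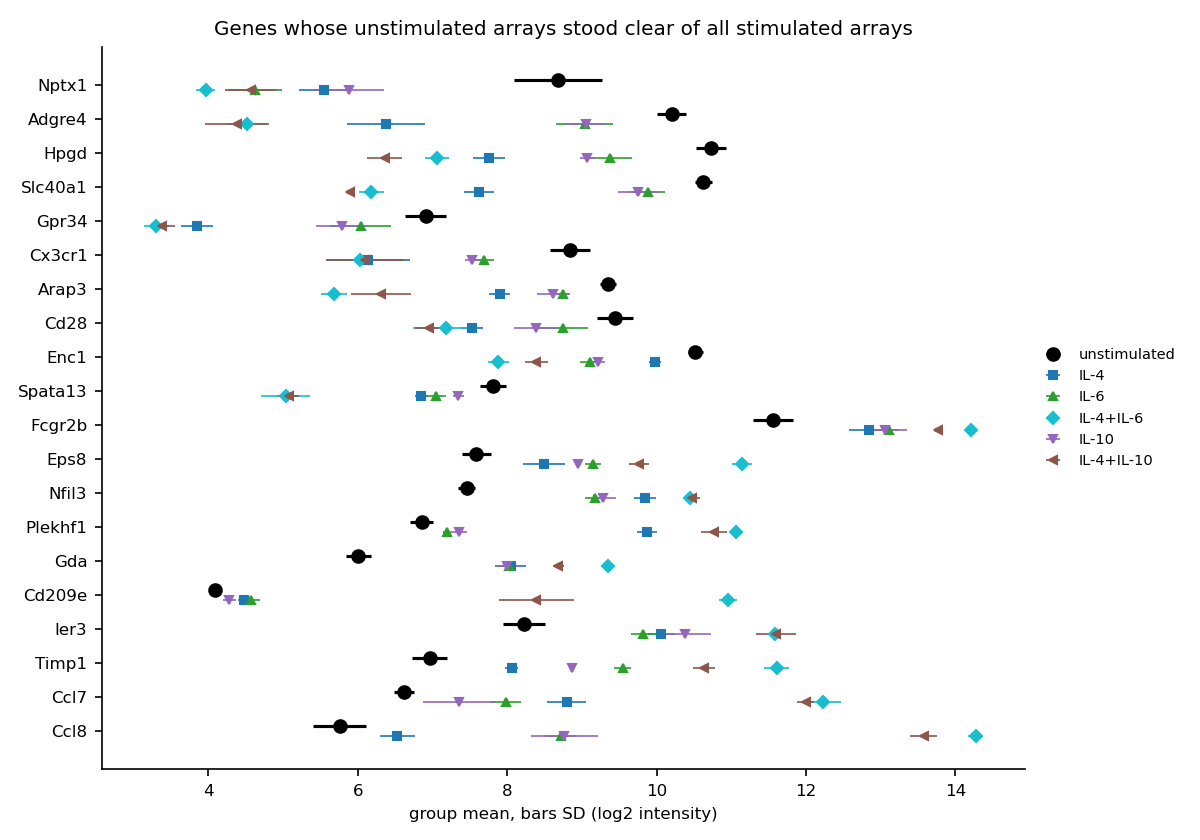
Group means with SD bars (x, log2 intensity) of the 10 genes most above and the 10 most below the stimulated groups among genes whose 8 unstimulated and 21 stimulated arrays do not overlap, with unstimulated arrays as black circles just above the 5 stimulated groups of the same gene. Nptx1 averages 8.68 unstimulated, above group means of 3.96 to 5.88, and Ccl8 averages 5.76, below group means of 6.53 to 14.27.

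Several lists leaned to one side of the resting state, read against 34.8% higher and 33.0% lower over all genes and a median difference of 0.00. Of 39 cell cycle genes tested 32 were higher and 1 lower in unstimulated cells, with a median difference of 0.49, for instance Top2a (0.59 ± 0.07), Ccna2 (0.61 ± 0.08) and Cenpf (0.87 ± 0.08). The inhibitor Cdkn1a was the lower one (-0.38 ± 0.03), while the inhibitors Cdkn1b and Cdkn2c were among the higher ones. The group means of Top2a were 10.74 with IL-4, 10.45 with IL-6, 10.48 with IL-10, 9.67 with IL-4 plus IL-6 and 10.04 with IL-4 plus IL-10, beside 10.86 unstimulated. Alternative activation had 1 higher and 25 lower of 27, with a median of -1.86, led by Arg1, Rnase2a and Retnla. At rest 17 of the 27, these 3 included, were near background, and such genes passed the filter mainly through stimulated arrays. The list is the programme known from IL-4, which most of the stimulated groups received. Its lean and median were thus largely set in advance. Mrc1, bright at rest, was lower on every unstimulated array than on any stimulated one (11.83 to 12.26 against 12.79 to 14.60). Pparg, the nuclear receptor, was the higher one of the list (0.15 ± 0.03).

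Chaperones and enzymes of the secretory and sterol pathways were lower at rest. Of 27 genes of the unfolded protein response 24 were lower and 1 higher, with a median of -0.48. Pdia4, a disulphide isomerase, was 9.07 to 9.53 unstimulated and 9.73 to 12.51 stimulated (-1.56 ± 0.05), and Hspa5 13.17 to 13.31 and 13.44 to 13.86 (-0.43 ± 0.02). Cholesterol synthesis had 1 higher and 19 lower of 20, with a median of -0.49, from Mvd (-1.17 ± 0.04) to Hmgcs1 (-0.39 ± 0.06) among those named. The respiratory chain and ATP synthase had 0 higher and 41 lower of 46 at a median of -0.18, the largest in Uqcrq (-0.59 ± 0.05). Macrophage identity had 20 higher and 4 lower of 27, with Cd14 at 1.31 ± 0.04 and Cybb, the oxidase of the respiratory burst, at 1.43 ± 0.08. Cd14 averaged 13.06 unstimulated, 13.23 with IL-6 and 13.24 with IL-10, and 10.48 to 11.28 in the groups with IL-4, so the average over the stimulated groups hides that the groups without IL-4 were not lower. Among the brightest genes, Lyz1, Fth1 and Lyz2 were higher by 0.18, 0.16 and 0.27, Csf1r by 0.09 ± 0.02, and Ctss and Actb were not called (-0.01 and -0.02).

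Only some markers of other cell types passed the filter of this comparison, and over all genes 34.8% were higher and 33.0% lower. Dendritic cell markers had 1 higher and 6 lower of 8 tested, erythroid and megakaryocyte markers 0 and 4 of 6, endothelial markers 0 and 3 of 3, fibroblast markers 0 and 2 of 2, and progenitor markers 3 and 0 of 4. At rest 21 of 22 fibroblast markers were near background, so those tested passed the filter mainly through stimulated arrays. For a marker that entered in this way a lower value at rest was largely set by the filter. These counts of few genes are therefore no test of cell content. Of 10 neutrophil markers tested 8 were higher and 2 lower in unstimulated cells, with S100a8 at 0.41 ± 0.08 and group means of 11.05 with IL-4, 11.45 with IL-6, 11.89 with IL-10, 10.74 with IL-4 plus IL-6 and 11.20 with IL-4 plus IL-10 beside 11.68 unstimulated. The part of these markers in the other differences was not tested. Progenitor markers Sox4 (1.44 ± 0.08) and Procr (0.77 ± 0.06) were higher in unstimulated cells, and Sox4 did so with no overlap, at 9.54 to 10.09 unstimulated and 7.44 to 9.20 stimulated.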

How the data were processed

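Total RNA of 29 macrophage samples was hybridised to Affymetrix 3′ arrays of 22690 probe sets. The deposited values are log2 intensities, which the authors made with RMA and GCOS 1.4, per the submitters' processing notes. Whether all arrays were normalized together is not given in the sources used here. The log2 values were used as deposited. The platform table named 1 gene for 20393 probe sets and several for 691, which were left out with the 64 control probe sets, and 20351 of 20380 matched RefSeq by gene ID. Levels used the probe set with the highest mean over the 8 unstimulated arrays, and tests the brightest over all 29, so a gene may be read by different probe sets in the 2.

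Differences were tested with limma 3.58.1 in R 4.3.3 (lmFit, eBayes, Benjamini-Hochberg adjustment over 7153 genes), and the procedure was tested on simulated data. Other steps used Python 3.11.15, numpy 2.4.6 and pandas 2.3.3. The members, gene lists and motifs were chosen with earlier results of these data known. Named genes are the 30 highest, the 12 of largest and 10 of smallest SD, the 4 highest and 2 lowest of each list, the 10 and 8 largest differences each way in the 2 comparisons, and a fixed set of receptors, cathepsins and response genes. The largest differences were taken among called genes whose arrays did not overlap. Other list members were named after their values were seen. Alternatives covered scaling, probe set choice, filters, thresholds, array weights, blocks and leaving out single arrays. Precision is limited by how many arrays each group has.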

Additional observations from a re-analysis of the deposited data

Results flagged for a closer look

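In 15 of 308 named genes 1 of the 8 unstimulated arrays lay far from the other 7, its gap to the nearest array as a share of the whole range, being over Dixon's 95% critical value for 8 values. Chance gives this in about 1 of 20 genes, and over all genes 926 (7.47%) showed it. Replicate 7 was the array concerned in 9 of the 15. It was the highest array for the respiratory chain subunit Cox4i1 (13.30), the microtubule regulator Stmn1 (12.85), the antioxidant enzymes Gpx4 (12.78) and Sod1 (12.54), the biliverdin reductase Blvrb (12.24), the neutrophil transcripts S100a9 (12.001) and Lcn2 (9.62) and the integrin chain Itgal (6.56). It was the lowest for Lyve1 (4.30), which is near background. Replicate 5 was lowest for Spata13 (7.45) and highest for Fscn1 (7.84). Replicate 6 was lowest for the glycolytic enzyme Eno2 (6.74) and the lactate exporter Slc16a3 (5.79). Replicate 4 was lowest for Tlr9 (5.33) and highest for Rnase2a (4.15), both near background.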

How the results depend on the processing

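The count of genes called between unstimulated and stimulated arrays was 7919 with every probe set tested, 3094 with the filter at the 75th percentile, 202 at a log2 difference of at least 1, and 3134 with replicates 6 to 8 and the IL-10 and IL-4 plus IL-10 groups alone. Leaving out 1 array gave 4684 to 4895. Deviations of same-numbered arrays correlated at a median of 0.48 (-0.68 to 0.78, over 0.1 in 41 of 57 pairs), against a median of -0.096 between different numbers. These pairs took the numbers as labelled, so arrays with IL-10 numbered 1 to 3 were matched with replicates 1 to 3 of the other groups. Such matches could differ in Xist, which was 6.77 on IL-10 replicate 1 and 13.63 on unstimulated replicate 1. The correlations therefore cannot decide whether the numbers pair the arrays. Since the labels state no pairing, the main fit did not use the numbers as pairs, although Xist went with the number in the groups without IL-10. With the replicate number as a block the count was 4963, and 5382 when the IL-10 replicates were numbered 6 to 8, a block chosen after seeing the data. For replicates 6 to 8 against 1 to 5 no paired analysis was possible because the sets share no number. There the count was 2624 with every probe set, 2874 with array weights, 697 at an adjusted p under 0.01, 23 at a log2 difference of at least 1, and 840 to 1433 with 1 array left out, the lowest without replicate 7. The causes were not tested. The 20 and 16 named differences kept direction and call under all of the 41 and 37 alternatives in which they were tested.

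The number of genes above the bound was 11653 with a bound from the Trp controls, and 6934 to 6975 with 1 array left out. The median SD of these genes was 0.0695 in replicates 1 to 5 alone, 0.0805 within the sets and 0.0838 to 0.0992 with 1 array left out. With a gene's probe sets averaged, 20 of the 30 highest genes stayed among the 30 highest, and levels moved by up to 5.44.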
